A study of Mus musculus with 9 samples.

Results

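The genes described are those of the voltage-gated ion channels and of the transient receptor potential (TRP) channels in B16F10 cells, a mouse melanoma line. The rule that chose them uses symbols only and no measured value, although it was set with earlier results of these data known: protein-coding genes of the Kcn, Scn, Cacn, Trpc, Trpm, Trpv and numbered Clcn series in the GENCODE M21 annotation, with 1 Trpm gene not used here. The rule gave 163 genes out of 54752 gene identifiers in the count table. They comprise 94 potassium channel genes (Kcn), 14 sodium channel genes (Scn), 26 calcium channel genes (Cacn), 22 TRP genes and 7 chloride channel and transporter genes (Clcn), and they include subunits that form no pore themselves. The naming is not exact, since Trpc4ap and Trpc5os carry a TRPC symbol and encode no channel, and inward rectifier and two-pore-domain potassium channels lack a voltage sensor and came in through their Kcn symbols.

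Voltage-gated channels are membrane pores that open when the voltage across the membrane changes, and their pore-forming alpha subunits often pair with auxiliary subunits. Potassium channels draw the membrane towards rest, sodium channels carry the fast upstroke of action potentials, and calcium channels turn depolarization into calcium entry. TRP channels are cation channels opened by lipids, heat, touch, osmotic change or calcium, and the CLC family holds chloride channels of the plasma membrane together with chloride-proton exchangers of endosomes and lysosomes. Melanoma cells do not fire like neurons, but pigment cells and their tumours are known to express ion channels, and ion transport across the membranes of melanosomes helps to set the pH in which pigment is made.

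RNA from 9 libraries had been sequenced in 3 groups of 3. Libraries of the first group carried the label Tada2bsg1 (guide 1) and those of the second Tada2bsg2 (guide 2), both with the genotype Tada2b knockout, and those of the last carried the label GFPsg, a guide named for green fluorescent protein, with the genotype WT. All were B16F10 cells in DMEM with 10% serum, so the groups differ by guide alone as far as the labels go; whether a group was a pool or 1 clone, and how the guides were delivered, is not given in the sources used here. The product of Tada2b belongs to the part of the SAGA complex that acetylates histones, and SAGA helps transcription factors to switch genes on. The labels do not say whether replicates were separate cultures, so p-values measure the spread between these libraries, which may be technical.

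Totals ran from 70.56 to 76.92 M counts per library (M, mega), and 3 counts, the most that a count of 0 allows, correspond to between 0.038 and 0.045 CPM (counts per M counts of the library). Tada2b mRNA was not lower in the libraries labelled knockout: it stood at 32.3, 33.3 and 32.7 CPM with guide 1, 29.0, 26.0 and 25.9 CPM with guide 2, and 28.0, 25.2 and 26.6 CPM in GFPsg, so transcript level does not check the label. All 7 melanocyte markers examined (Sox10, Mitf, Mlana, Pmel, Tyr, Dct and Tyrp1) were detected in every group, as the cell label states. Each was lower in the knockout contrast, and their summed level was between 4973 and 5210 CPM with guide 1, between 7032 and 7274 CPM with guide 2 and between 20321.5 and 21118.3 CPM in GFPsg. These are bulk libraries, in which fewer cells of one kind and less RNA per cell cannot be told apart.

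Most channel genes had few reads or none. Of the 163, 34 had no read in any library, 78 had some reads but fell under the filter on low counts, which lies near 0.134 CPM, and 51 were tested. The untested genes held few reads, with at most 60 over all 9 libraries (Kcnrg). Every one of the 7 CLC genes was tested and 10 of 22 TRP genes were, against 22 of 94 potassium, 7 of 26 calcium and 5 of 14 sodium channel genes. All 4 calcium channel alpha2delta genes went untested, as did 8 of 10 calcium channel alpha1 genes, among them Cacna1b and Cacna1e, which had no read.

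**Figure D1:**
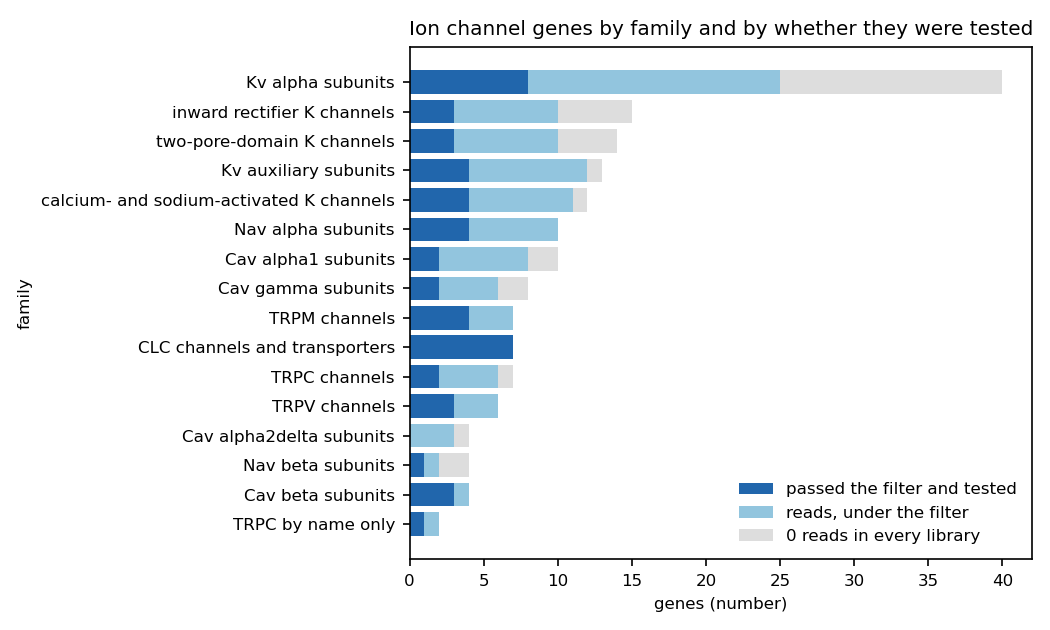
Number of ion channel genes in each family (bars, horizontal axis), split into genes that passed the filter on low counts and were tested, genes with some reads under the filter, and genes with 0 reads in all 9 libraries. All 7 CLC genes were tested, against 8 of 40 potassium channel alpha (Kv alpha) genes, 15 of which had no reads.

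The tested channel genes were also low by the measure of the whole transcriptome: their median level in GFPsg was 1.24 CPM, against 10.8 CPM over all 17931 genes tested, and 25 of the 51 lay under 1 CPM (49%), against 29.2% of all genes. Per kilobase of exon, the leading genes in GFPsg were Trpm7, a cation channel fused to a kinase that conducts magnesium and calcium, at 17.9 CPM per kilobase, Trpc4ap, an adaptor of a ubiquitin ligase, at 15.1, and Clcn4, an endosomal chloride-proton exchanger, at 13.4. They were followed by Kcnab2, a cytosolic beta subunit of potassium channels, at 10.8, by Clcn7, the lysosomal chloride-proton exchanger, at 10.2, and by Trpv2, a cation channel of plasma membrane and endosomes, at 6.11. Clcn5 at 5.19 and Clcn3 at 4.49, both endosomal exchangers, completed the first 8, so that 4 of the 8 were intracellular CLC proteins. Scn8a followed closely at 4.11, and no other sodium, calcium or pore-forming potassium channel gene reached that level.

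In the knockout libraries 32 of the 51 tested channel genes had changed at an adjusted p under 0.05 (62.7%), 19 of them higher and 13 lower than in GFPsg, while 19 were not called. Over all genes tested the same test called 51.0%, made up of 24.7% higher and 26.3% lower, so a large share of the transcriptome moved and a count of called channel genes says little by itself. The sizes were larger than usual: the median absolute log2 change was 0.58 among channel genes and 0.24 among all genes, and 12 channel genes (23.5%) passed 2-fold as well as the test, against a background of 11.2%. Channel genes were at lower levels than most genes, as given above, and the part of this in the sizes was not tested. The median signed change was 0.01 for channel genes and −0.02 for all genes. The test was edgeR's quasi-likelihood test with Benjamini-Hochberg adjustment over all genes, comparing the mean of both guides with GFPsg. For 41 of the 51 genes the filter was passed in all 9 libraries, with 15 higher and 12 lower among them. A further 6 passed in full only through the knockout libraries and 2 only through GFPsg, so that their entry into the test rested on the group where they were higher; Kcns1, Trpm5, Trpv4, Kcna5 and Kcnmb4 are among the first kind, and Kcnj13 and Kcnc2 are the second. Knockout and GFPsg libraries did not overlap for 27 of the 51 (52.9%), against 44.0% of all genes. The balance of directions depends on scaling: with library size alone, 20 genes were higher and 9 lower.

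**Figure D2:**
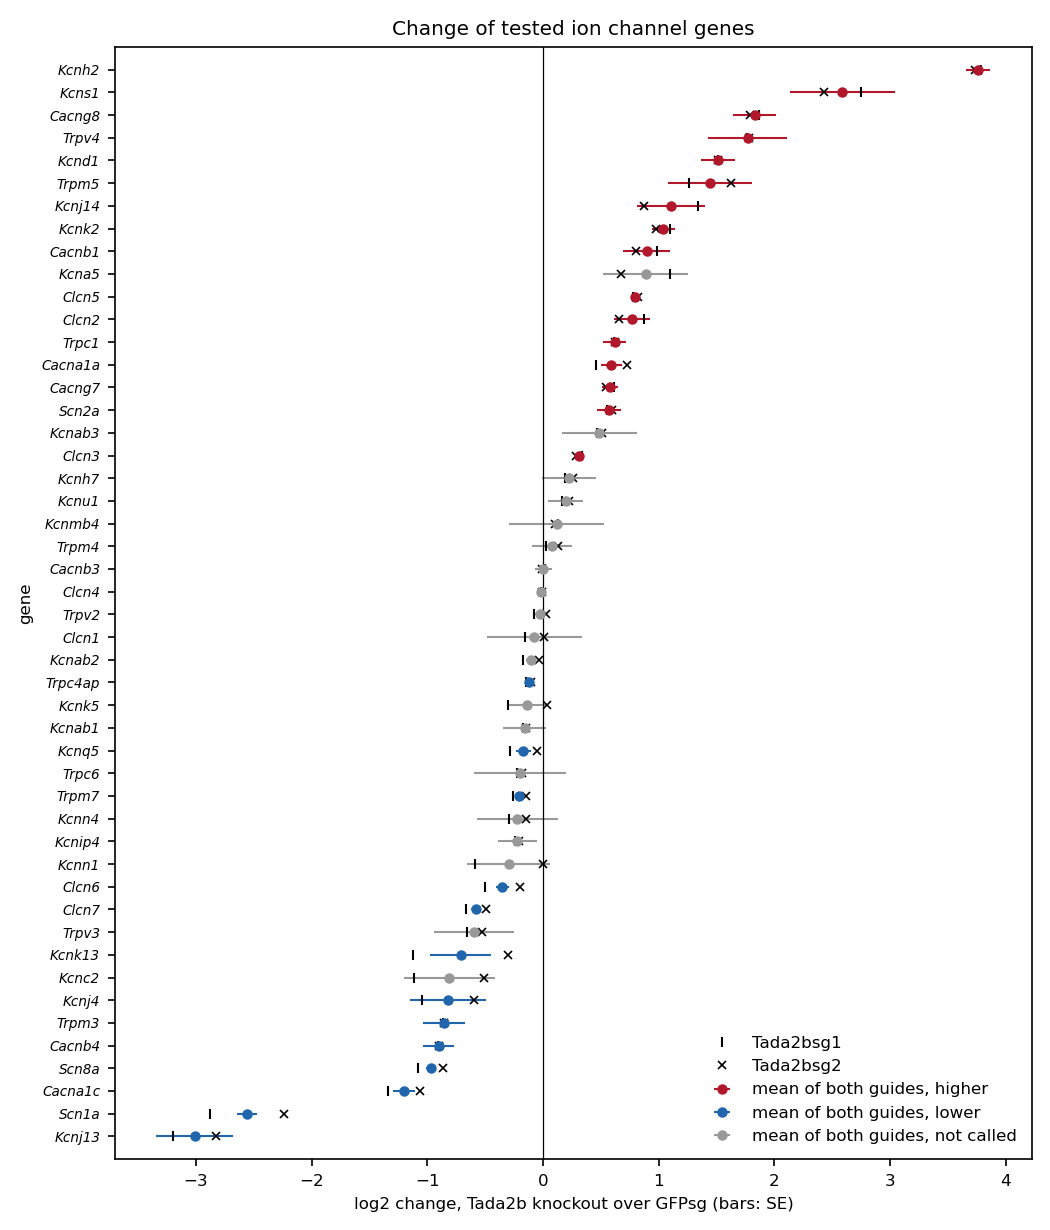
Log2 change of 48 of the 51 tested channel genes in Tada2b knockout over GFPsg libraries (horizontal axis), ordered by size, with filled points and bars for the mean of both guides and its standard error and small marks for each guide. The 16 red points run up to 3.77 for Kcnh2, the 13 blue points run down to −3.01 for Kcnj13, and the 19 grey points were not called.

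The largest rise and the deepest fall were both in potassium channel genes. Kcnh2 (chromosome 5, 24319589 to 24351604, minus strand, mm10) encodes the channel of the rapid delayed rectifier current, known as ERG, which repolarizes heart muscle and has been studied in many tumour lines. It had 11.9, 11.7 and 11.3 CPM with guide 1, 11.6, 11.5 and 10.5 CPM with guide 2, and 0.986, 0.855 and 0.671 CPM in GFPsg. All 6 knockout libraries stood far above all 3 controls, with no overlap and little scatter within a guide. The change was 3.77 ± 0.10 (log2, SE; adjusted p = 6.21e-15), or 13.6-fold, and the guides gave 3.79 and 3.74 against the same controls. Its level was 2.40 ± 0.0689 CPM per kilobase with guide 1, 2.31 ± 0.123 with guide 2 and 0.173 ± 0.0326 in GFPsg (SD, n = 3).

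That rise altered which gene led the family of Kv alpha subunits. Summed per kilobase, the 40 genes came in CPM per kilobase to 4.10 ± 0.0941 with guide 1, 4.06 ± 0.246 with guide 2 and 1.47 ± 0.0957 in GFPsg (mean ± SD, n = 3). Of that sum Kcnh2 made up 58.5% with guide 1, 57.0% with guide 2 and 11.7% in GFPsg, whereas Kcnq5, a subunit of the slow M-type current, made up 17.0% with guide 1, 20.2% with guide 2 and 58.1% in GFPsg. Kcnq5 itself moved little, at −0.17 ± 0.07 (adjusted p = 0.0467), and 15 of 17 other settings did not call it. These sums and shares are descriptions and were not tested.

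Kcnd1, which encodes a fast-inactivating A-type channel, had 2.66, 2.61 and 2.86 CPM with guide 1, 3.03, 2.68 and 2.44 CPM with guide 2, and 1.00, 1.14 and 0.713 CPM in GFPsg. Each knockout library exceeded each control, and the change was 1.51 ± 0.15 (log2; adjusted p = 1.71e-07). Kcns1, whose product forms no channel alone and modifies its relatives, held 34, 24 and 18 reads with guide 1, 19, 25 and 15 reads with guide 2, and 3, 5 and 2 reads in GFPsg. The read ratio, scaled for library size, was 6.28 with an exact 95% interval of 3.31 to 13.4 that covers counting error only. The test called Kcns1 higher (adjusted p = 1.21e-04). The gene passed the filter in full only through the knockout libraries, so its entry rested on the group where it was higher. Kcna5, Kcnc2 and Kcnh7 were tested and not called, with changes of 0.89, −0.81 and 0.22. Among the untested Kv genes, Kcnh4, a relative of Kcnh2, had 36 reads over the knockout libraries and 2 over GFPsg, a scaled ratio of 8.37 (95% interval 2.15 to 71.7). Kcns1, Kcnh4 and, further on, Kcnk13 and Kcnj4 were singled out after their values were seen.

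Kcnj13 (chromosome 1, 87386363 to 87394729, minus strand) encodes an inward rectifier best known from the retinal pigment epithelium, where it keeps the membrane near rest. It had 8, 3 and 4 reads with guide 1, 4, 10 and 5 reads with guide 2, and 51, 38 and 40 reads in GFPsg. Counts were few, and the gene passed the filter in full only through GFPsg, where it was higher. Every knockout library lay far under every control. In CPM this was 0.0643 and 0.0838 CPM with guides 1 and 2, against 0.606 CPM in GFPsg, a change of −3.01 ± 0.33 (adjusted p = 7.29e-07), 8.05-fold lower. Of its 1270 exon bases, 623 lie opposite Gigyf2, a gene on the other strand at 63.8, 68.0 and 68.9 CPM with guide 1, with guide 2 and in GFPsg, and the strand setting of the counting is not given in the sources used here. Gigyf2 itself did not pass the test (log2 −0.06, adjusted p = 0.182). Kcnj14, another inward rectifier, went the other way with 0.684, 0.497 and 0.795 CPM with guide 1, 0.289, 0.594 and 0.544 CPM with guide 2, and 0.270, 0.225 and 0.280 CPM in GFPsg, a change of 1.11 ± 0.30 (adjusted p = 0.00459). The lowest knockout library of Kcnj14 was only just above the highest control. In CPM per kilobase the family summed to 0.407 ± 0.0576 with guide 1, 0.384 ± 0.0546 with guide 2 and 0.792 ± 0.106 in GFPsg. Kcnj13 held 12.3% with guide 1, 16.8% with guide 2 and 60.5% in GFPsg, and Kcnj14 held 59.0% with guide 1, 44.7% with guide 2 and 12.1% in GFPsg.

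The stretches before the starts of both extreme potassium channel genes are shown because these genes changed most, in opposite directions. Each run gives the 250 bases before the RefSeq start on GRCm38.p6, read along the gene's own strand (minus for both), at chr5:24329592-24329841 for Kcnh2 and chr1:87394730-87394979 for Kcnj13. Capitals mark short motifs searched on both strands, namely GGGCGG (GC box) in Kcnh2 and, in Kcnj13, CATGTG (an E-box, read from the other strand as CACATG), the TEAD motif CATTCC (read as GGAATG) and the letters TATAAA. The Kcnh2 start is an internal one, since the annotated gene runs on to base 24351604.
Kcnh2: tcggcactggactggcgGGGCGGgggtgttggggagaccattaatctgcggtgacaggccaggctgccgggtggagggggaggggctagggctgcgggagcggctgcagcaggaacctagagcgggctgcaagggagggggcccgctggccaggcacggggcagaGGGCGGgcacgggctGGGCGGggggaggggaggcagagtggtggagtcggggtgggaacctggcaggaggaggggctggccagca
Kcnj13: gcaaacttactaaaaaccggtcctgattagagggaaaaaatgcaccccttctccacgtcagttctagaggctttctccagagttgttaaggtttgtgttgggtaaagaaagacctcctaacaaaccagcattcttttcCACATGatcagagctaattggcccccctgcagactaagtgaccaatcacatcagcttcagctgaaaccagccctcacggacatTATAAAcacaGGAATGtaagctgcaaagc
Kcnh2 held 3 GC boxes, at 233, 85 and 70 bases before the start, and no other motif searched. In Kcnj13 the TATAAA lay 29 bases, the GGAATG 19 bases and the CACATG 112 bases before the start. A match of letters is not evidence of binding.

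Among two-pore-domain channels, which carry the background potassium leak, Kcnk2 rose. It encodes a leak channel opened by stretch, heat and lipids, and had 5.38, 4.91 and 4.90 CPM with guide 1, 4.88, 4.88 and 4.14 CPM with guide 2, and 2.11, 2.62 and 2.35 CPM in GFPsg. The change was 1.04 ± 0.10 (adjusted p = 1.33e-07), again with no overlap between knockout and control libraries. Kcnk5, an acid-sensitive leak channel and the family's leading gene per kilobase in GFPsg, stood at 1.40 ± 0.191 CPM with guide 1, 1.76 ± 0.0162 with guide 2 and 1.72 ± 0.440 in GFPsg (SD, n = 3) and was not called. Kcnk13 fell by the test (−0.71 ± 0.27, adjusted p = 0.0344), but 9 of 16 other settings did not call it, and neither did guide 2 on its own (adjusted p = 0.457). The inward rectifier Kcnj4 was similar, at −0.82 ± 0.33 (adjusted p = 0.0464), with the call lost under 13 of 16. Where 51.0% of all genes tested were called, no calcium- or sodium-activated potassium channel gene was, out of 4 tested. Nor was any auxiliary Kv subunit gene out of 4, and sets this small do not give a family trait. These 8 genes had changes between −0.29 (Kcnn1) and 0.49 (Kcnab3). Kcnu1, a channel known from sperm, was at 0.20 ± 0.15 (adjusted p = 0.306) and Kcnab2 at −0.10 ± 0.04 (adjusted p = 0.0667).

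**Figure D3:**
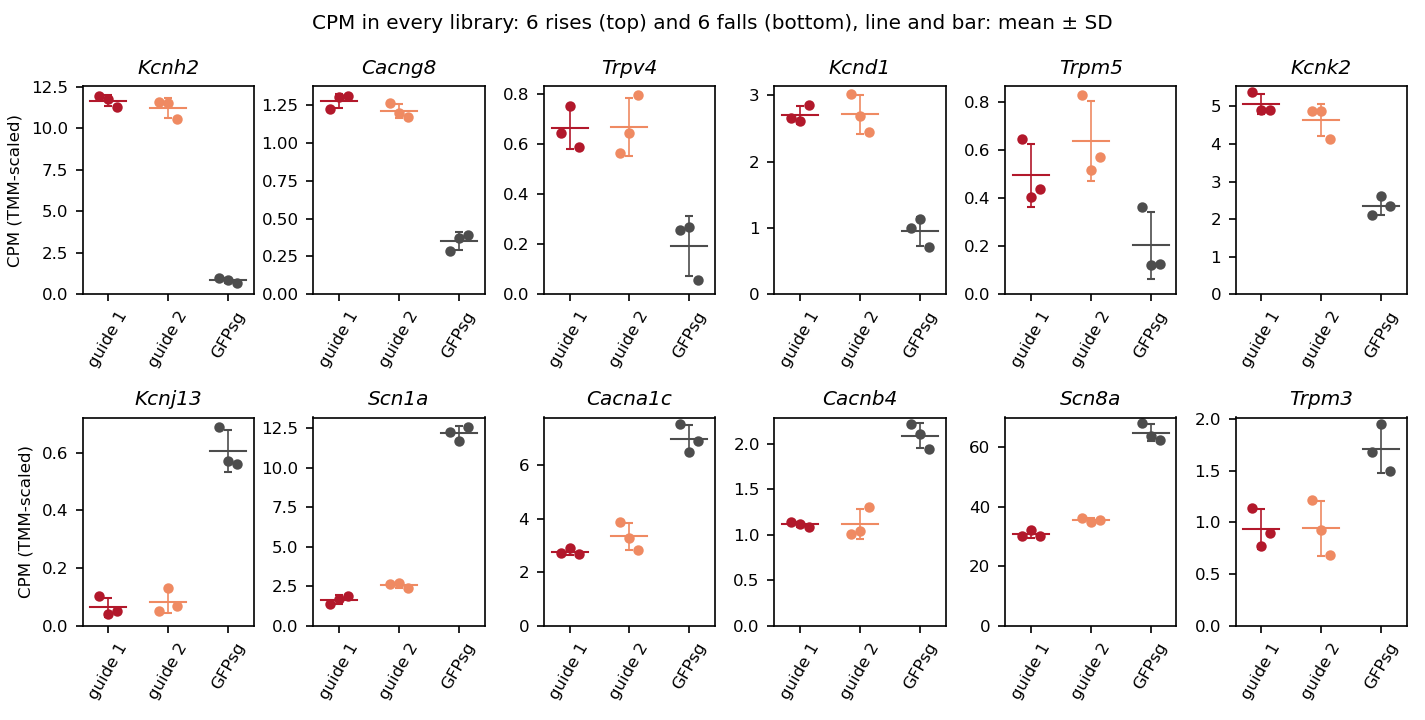
CPM in each library (points) for 6 genes that rose and 6 that fell, with a line for the group mean and a bar for 1 SD either side, for guide 1, guide 2 and GFPsg from left to right. The genes were picked for large changes called with both guides, which favours separated groups. In none of the 12 panels do knockout and GFPsg libraries overlap, as for 44.0% of all genes tested. Trpv4 and Trpm5 passed the filter in full only through the knockout libraries, and Kcnj13 only through GFPsg. Kcnh2 lies between 10.5 and 11.9 CPM in the knockout libraries and between 0.671 and 0.986 CPM in GFPsg.

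Sodium channel genes moved in both directions, and all 5 that were tested passed, against 51.0% of all genes tested. Scn8a, which encodes the sodium channel of axon initial segments and nodes, was the leading alpha subunit in every group, with 30.1, 32.0 and 30.1 CPM with guide 1, 36.2, 35.0 and 35.6 CPM with guide 2, and 68.1, 63.9 and 62.5 CPM in GFPsg. The highest knockout library (36.2 CPM) was well under the lowest control (62.5 CPM), and the change was −0.97 ± 0.04 (adjusted p = 8.76e-13). Scn1a (chromosome 2, 66270778 to 66440840, minus strand), the alpha subunit prominent in inhibitory interneurons, showed 1.35, 1.72 and 1.89 CPM with guide 1, 2.64, 2.71 and 2.39 CPM with guide 2, and 12.3, 11.7 and 12.6 CPM in GFPsg. This was 5.90-fold lower, at −2.56 ± 0.08 (adjusted p = 7.36e-14), and the 3 groups did not overlap each other. Scn2a, the alpha subunit of excitatory neurons, lies on the same chromosome and went the other way, at 0.57 ± 0.10 (adjusted p = 1.80e-04). It had 4.92, 4.15 and 4.99 CPM with guide 1, 4.10, 5.37 and 5.04 CPM with guide 2, and 3.34, 3.30 and 2.98 CPM in GFPsg.

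The 250 bases before the RefSeq start of Scn1a (GRCm38.p6, chr2:66440838-66441087, minus strand) are shown beside that fall, and none of the 7 motifs searched was found in this window, so nothing is in capitals.
Scn1a: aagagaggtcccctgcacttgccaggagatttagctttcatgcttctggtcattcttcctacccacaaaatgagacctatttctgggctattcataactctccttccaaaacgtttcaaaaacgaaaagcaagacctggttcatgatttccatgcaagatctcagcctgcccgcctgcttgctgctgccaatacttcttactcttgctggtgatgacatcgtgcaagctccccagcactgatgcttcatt

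The sum over the 10 alpha subunit genes was, in CPM per kilobase, 2.53 ± 0.0464 with guide 1, 2.93 ± 0.0124 with guide 2 and 5.48 ± 0.199 in GFPsg. Of it Scn8a held 77.1% with guide 1, 77.1% with guide 2 and 75.0% in GFPsg. Scn1a held 5.86% with guide 1, 7.91% with guide 2 and 19.97% in GFPsg. Scn2a was singled out after its values were seen.

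In the calcium channels the pair of tested alpha1 genes exchanged rank. Cacna1c, the L-type channel of heart and smooth muscle, had 2.71, 2.92 and 2.68 CPM with guide 1, 3.87, 3.29 and 2.85 CPM with guide 2, and 7.54, 6.49 and 6.92 CPM in GFPsg, a change of −1.20 ± 0.09 (adjusted p = 7.98e-09). Cacna1a, the P/Q-type channel of nerve terminals, had 3.41, 3.82 and 3.64 CPM with guide 1, 4.59, 4.36 and 4.13 CPM with guide 2, and 2.50, 2.83 and 2.59 CPM in GFPsg, a change of 0.59 ± 0.09 (adjusted p = 3.71e-05). Neither gene's knockout libraries overlapped its controls. Of the alpha1 total per kilobase, Cacna1a made up 67.7% with guide 1, 67.9% with guide 2 and 40.8% in GFPsg, and Cacna1c 27.9% with guide 1, 27.8% with guide 2 and 58.0% in GFPsg. The total itself was, in CPM per kilobase, 0.469 ± 0.0188 with guide 1, 0.563 ± 0.0455 with guide 2 and 0.568 ± 0.0165 in GFPsg, nearly the same with guide 2 as in GFPsg although the shares of both genes differed. Cacna1i, a T-type channel, was under the filter with 31 reads in the knockout libraries and none in GFPsg, at least 4.8-fold higher against 3 counts over the GFPsg group. Cacna1a and Cacna1i were singled out after their values were seen.

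Beta subunits, which bring alpha1 to the membrane and tune its gating, also changed in both directions. Cacnb1, the beta subunit of skeletal muscle, rose by 0.90 ± 0.20 (adjusted p = 0.00133), with 0.937, 1.01 and 0.783 CPM with guide 1, 0.763, 0.839 and 0.795 CPM with guide 2, and 0.527, 0.480 and 0.364 CPM in GFPsg. Cacnb4, a neuronal form, stood at 1.14, 1.12 and 1.09 CPM with guide 1, 1.01, 1.05 and 1.31 CPM with guide 2, and 2.22, 2.11 and 1.94 CPM in GFPsg, a change of −0.90 ± 0.13 (adjusted p = 1.88e-05). Cacnb3, the leading beta gene per kilobase in GFPsg, was at 6.24 ± 0.425 CPM with guide 1, 6.10 ± 0.0885 with guide 2 and 6.14 ± 0.420 in GFPsg (SD, n = 3) and was not called (log2 0.01 ± 0.07). Both tested gamma genes rose, where 24.7% of all genes tested were higher. Their products are best known as partners of glutamate receptors in the brain. Cacng7 had 10.4, 11.9 and 10.5 CPM with guide 1, 11.0, 10.5 and 9.74 CPM with guide 2, and 6.89, 6.93 and 7.57 CPM in GFPsg, a change of 0.58 ± 0.07 (adjusted p = 1.98e-06). Cacng8 had 1.23, 1.30 and 1.31 CPM with guide 1, 1.26, 1.2001 and 1.17 CPM with guide 2, and 0.284, 0.375 and 0.392 CPM in GFPsg, a change of 1.83 ± 0.19 (adjusted p = 3.29e-07). For both, the lowest knockout library was above the highest control, and Cacng8 changed 3.55-fold.

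**Figure D4:**
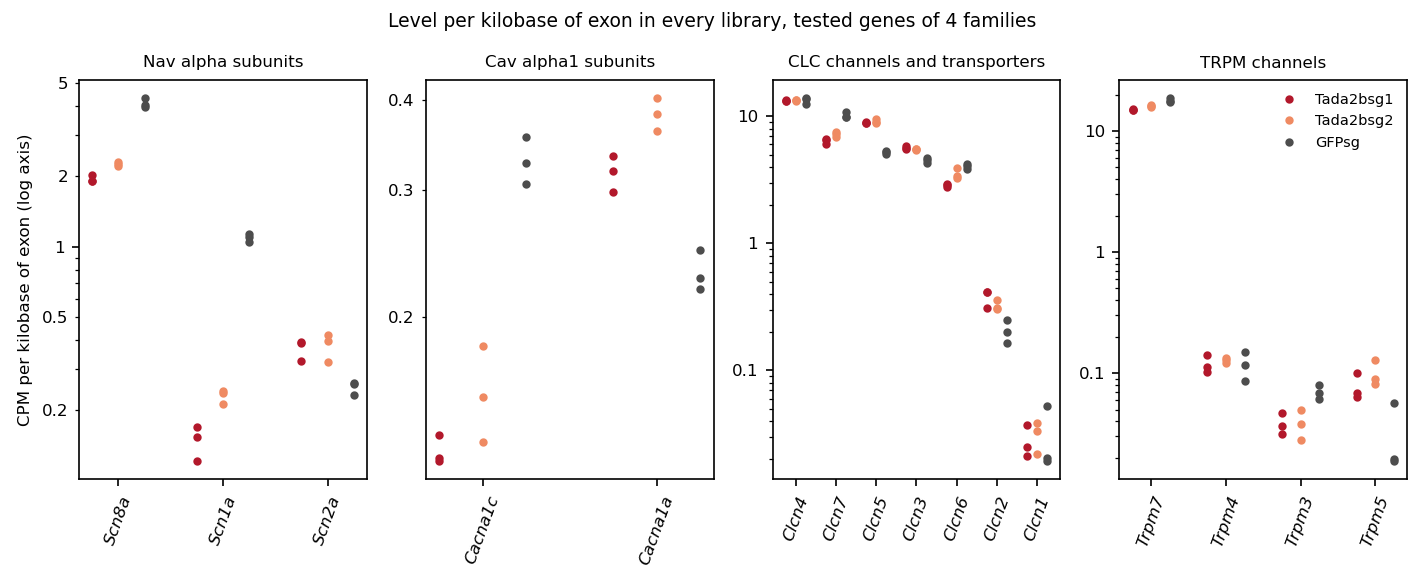
CPM per kilobase of exon in each library (points, log axis) for tested genes of 4 families, with guide 1, guide 2 and GFPsg from left to right within each gene. Scn8a and Scn1a are lower and Scn2a higher in knockout libraries than in GFPsg, and Cacna1a lies above Cacna1c in every knockout library and under it in every GFPsg library.

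TRP genes gave 3 rises, 3 falls and 4 genes not called, where 24.7% of all genes tested were higher and 26.3% lower. Of the rises, Trpv4 and Trpm5 passed the filter in full only through the knockout libraries, where they were higher. Trpv4, a channel opened by osmotic swelling and warmth, had 0.646, 0.753 and 0.590 CPM with guide 1, 0.566, 0.645 and 0.795 CPM with guide 2, and 0.257, 0.270 and 0.0559 CPM in GFPsg, a change of 1.77 ± 0.34 (adjusted p = 3.24e-04). One control, GFPsg replicate 3, was under the others, and without it the log2 change was 1.34 and still called. Trpm5, the calcium-activated channel of taste cells, had 0.646, 0.403 and 0.436 CPM with guide 1, 0.829, 0.516 and 0.572 CPM with guide 2, and 0.365, 0.120 and 0.126 CPM in GFPsg, a change of 1.44 ± 0.36 (adjusted p = 0.00284). Here GFPsg replicate 1 was higher than the other controls and close to the lowest knockout library, and without it the change was 2.18. Trpc1, which takes part in store- and receptor-operated calcium entry, was steadier, with 6.81, 6.87 and 6.04 CPM with guide 1, 7.06, 6.28 and 6.40 CPM with guide 2, and 4.11, 3.66 and 5.06 CPM in GFPsg and a change of 0.62 ± 0.10 (adjusted p = 3.96e-05). It led the TRPC channels in every group, at 0.819 ± 0.0574 CPM per kilobase with guide 1, 0.820 ± 0.0522 with guide 2 and 0.533 ± 0.0894 in GFPsg.

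On the side of the falls, Trpm3, a heat- and steroid-sensitive channel, had 1.14, 0.766 and 0.898 CPM with guide 1, 1.21, 0.929 and 0.684 CPM with guide 2, and 1.68, 1.95 and 1.497 CPM in GFPsg, a change of −0.86 ± 0.18 (adjusted p = 7.51e-04). Trpm7, the leading gene of all 163 per kilobase in GFPsg, had 167, 171 and 169 CPM with guide 1, 186, 183 and 179.5 CPM with guide 2, and 199, 197 and 211 CPM in GFPsg. Knockout and control libraries did not overlap, but the change was small, at −0.20 ± 0.03 (adjusted p = 5.70e-05), −0.12 with library size alone, and not called against a minimum of 1.2-fold. Trpc4ap was the third, at −0.12 ± 0.04 (adjusted p = 0.00937), a call lost with library size alone or without GFPsg replicate 2. Trpv2 stood at 26.0 ± 0.671 CPM with guide 1, 27.9 ± 2.68 with guide 2 and 27.4 ± 2.16 in GFPsg (SD, n = 3) and was not called, at −0.03 ± 0.06. Trpm4, Trpc6 and Trpv3 were not called either, with changes of 0.08, −0.20 and −0.59.

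The CLC family showed opposing changes at a similar sum. The 7 genes summed in CPM per kilobase to 37.5 ± 0.508 with guide 1, 39.1 ± 0.683 with guide 2 and 37.5 ± 0.246 in GFPsg. Of the 7, 3 rose and 2 fell, against 24.7% higher and 26.3% lower over all genes tested. Clcn5, the endosomal exchanger of kidney tubule cells, had 102, 101 and 103 CPM with guide 1, 109, 104 and 102 CPM with guide 2, and 60.01, 60.7 and 57.7 CPM in GFPsg, a change of 0.80 ± 0.04 (adjusted p = 4.41e-12). Clcn7, which serves the lysosome together with its subunit Ostm1, had 35.1, 34.6 and 32.1 CPM with guide 1, 40.0, 36.2 and 38.5 CPM with guide 2, and 56.9, 52.4 and 52.0 CPM in GFPsg, a change of −0.58 ± 0.04 (adjusted p = 8.20e-09). Libraries of knockout and control were apart for both genes. Of the family sum, Clcn5 made up 23.7% with guide 1, 23.4% with guide 2 and 13.8% in GFPsg, and Clcn7 17.1% with guide 1, 18.5% with guide 2 and 27.1% in GFPsg.

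Clcn3, an exchanger of endosomes and synaptic vesicles, rose by 0.31 ± 0.04 (adjusted p = 1.18e-06), and Clcn2, a chloride channel of the plasma membrane, by 0.77 ± 0.16 (adjusted p = 5.13e-04). Clcn2 had 2.48, 2.49 and 1.87 CPM with guide 1, 2.17, 1.85 and 1.87 CPM with guide 2, and 1.51, 1.21 and 0.993 CPM in GFPsg. Clcn6, a late endosomal exchanger, had 16.4, 17.3 and 17.0 CPM with guide 1, 23.1, 20.3 and 19.4 CPM with guide 2, and 25.05, 22.7 and 24.2 CPM in GFPsg, a change of −0.35 ± 0.06 (adjusted p = 5.64e-05). Its guide 2 libraries reached into the range of the controls and its guide 1 libraries did not. Clcn4, the leading member in every group, was at 114 ± 1.36 CPM with guide 1, 114 ± 1.87 with guide 2 and 115 ± 6.15 in GFPsg (SD, n = 3) and was not called (log2 −0.01 ± 0.04). Clcn1, the muscle channel, stood at 0.151 and 0.169 CPM with guides 1 and 2, against 0.167 CPM in GFPsg, and was not called. The window before the RefSeq start of Clcn7 (the first of 2; GRCm38.p6, chr17:25133141-25133390, plus strand) is shown because Clcn7 fell and is among the leading members by level; the palindrome CACGTG (capitals), an E-box, is also found in windows of genes that were not called.
Clcn7: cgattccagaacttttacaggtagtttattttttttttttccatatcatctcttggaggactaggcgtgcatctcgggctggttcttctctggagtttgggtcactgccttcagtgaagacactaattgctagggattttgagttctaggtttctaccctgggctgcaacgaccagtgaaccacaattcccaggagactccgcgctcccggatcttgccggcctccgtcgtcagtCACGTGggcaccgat
In Clcn7 the motif lay 15 bases before the start, in Trpm7 25 bases and in Clcn6, which had it in 2 places, 48 and 25 bases before the start.

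Across members, 42 of the 51 tested genes matched an entry of the RefSeq table, some with several starts. CACGTG was in 3 of 21 windows of genes that fell (14.3%), in 0 of 20 windows of genes that rose, in 5 of 29 windows of tested genes that were not called (17.2%), and in 8.1% of 14057 windows of all genes tested. The letters CATTCC were in 6 windows of genes that rose and 2 of those that fell, against 11.0% for all genes tested. The GC box was in 10 windows of genes that rose and 4 of those that fell, against 55.0%, and the E-box CATGTG in 2 and 3, against 8.0%. The TATA motif was in 2 windows of genes that rose and 1 of those that fell, against 6.8%. The AP-1 motif (TGANTCA) was in 1 window of genes that rose and the IRF motif (GAAA and GAAA, 2 bases apart) in none of either set, against 4.8% and 2.6%. Windows of genes not called held CATTCC in 3, the GC box in 10, CATGTG in 1, TATA in 1, AP-1 in 2 and IRF in 4. With so few windows, several from one gene, these shares are descriptions only, and motifs were counted on both strands.

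Each guide was also compared with GFPsg, with the same 3 control libraries in both comparisons. Guide 1 gave 33 called channel genes (19 higher, 14 lower), against 48.4% of all genes, 23.8% higher and 24.5% lower. Guide 2 gave 27 (18 higher, 9 lower), against 45.1% of all genes, 22.1% higher and 23.0% lower. The guides were compared directly too. There 3 of 51 channel genes were called, against a background of 3.68% (2.66% higher with guide 2), and all 3 were higher with guide 2: Scn1a at 0.64 ± 0.12 (adjusted p = 0.00502), Clcn6 at 0.31 ± 0.07 (adjusted p = 0.0141) and Scn8a at 0.21 ± 0.05 (adjusted p = 0.0156). At an unadjusted p under 0.05 there were 11. Each of the 3 is a gene that fell in the knockout contrast, so its guide 2 level was the nearer one to GFPsg. The summed melanocyte markers were likewise nearer to GFPsg with guide 2, and their part in these differences was not tested. Only 1 of the 3 genes was called when Tada2bsg1 replicate 1 or replicate 3 was left out.

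Genes that work with these channels were counted from 4 lists. Of 108 listed genes 67 were tested and 51 called (76.1%), 27 higher and 24 lower, against 51.0% of all genes tested (24.7% higher and 26.3% lower), with a median log2 change of 0.05; with library size alone 35 were higher and 20 lower. Other ion channels made up 29 of those tested, with 15 higher and 9 lower. Ano3, of the anoctamin family, was at 15.98 and 25.4 CPM with guides 1 and 2, against 68.4 CPM in GFPsg (−1.76 ± 0.04, adjusted p = 3.38e-16), Hvcn1, the voltage-gated proton channel, at 5.23 and 7.90 CPM with guides 1 and 2, against 20.9 CPM in GFPsg (−1.70 ± 0.05, adjusted p = 2.06e-14), and Mcoln3, a cation channel of endosomes, at 27.7 and 33.8 CPM with guides 1 and 2, against 71.5 CPM in GFPsg (−1.22 ± 0.05, adjusted p = 7.03e-13).

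Pumps and exchangers gave 3 rises and 5 falls among 10 tested. For this list and those below, the shares over all genes tested were 24.7% higher and 26.3% lower. Atp1b3, a beta subunit of the sodium pump, changed by −0.39 ± 0.04 (adjusted p = 7.27e-08). Of 18 tested genes of calcium entry and stores, 5 rose and 7 fell. Among them Ryr3, a calcium release channel, changed by −1.39 ± 0.09 (adjusted p = 6.73e-10), Itpr3, another release channel, by 1.78 ± 0.14 (adjusted p = 8.53e-09), and Mcub, a subunit that restrains calcium uptake into mitochondria, by 2.14 ± 0.14 (adjusted p = 7.10e-10). Of 10 tested regulators 4 rose and 3 fell. Fxyd5, a modulator of the same pump, changed by 1.82 ± 0.06 (adjusted p = 8.03e-14), and Nedd4l, a ubiquitin ligase that removes sodium channels from the membrane, by −0.68 ± 0.04 (adjusted p = 1.54e-10). Fgf11, an intracellular partner of sodium channels, was at 1.55 and 1.36 CPM with guides 1 and 2, against 0.164 CPM in GFPsg (3.13 ± 0.22, adjusted p = 1.65e-09).

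Many of the channels described are best known from nerve and muscle, so markers of those and other cell types were read from the same libraries. Of 11 neuron markers only Tubb3 was tested, and it was lower (−0.67 ± 0.03, adjusted p = 9.04e-12); Snap25 and Nefl had no reads. The neuron list summed to between 58.2 and 58.8 CPM with guide 1, 62.9 and 64.6 CPM with guide 2, and 94.7 and 99.8 CPM in GFPsg. Of 13 muscle markers 4 were tested and all 4 were higher, namely Des, Acta1, Tnnt2 and Tnnt3, against 24.7% of all genes tested. Acta1 and Tnnt3 lay under 0.134 CPM in every GFPsg library. Their entry into the test thus rested on the knockout libraries, where they were higher. Acta1 also overlapped the controls and was not called with guide 2 (adjusted p = 0.0750). Myod1, Myh1, Myh2, Myh4 and Myh7 had no reads. The muscle list summed to between 9.49 and 11.1 CPM with guide 1, 7.87 and 9.00 CPM with guide 2, and 1.80 and 2.44 CPM in GFPsg. Leukocyte markers gave 3 tested genes out of 8, Cd68 and Lyz2 higher and Fcer1g lower, with no read of Ptprc, and summed to between 6.65 and 7.02 CPM with guide 1, 5.95 and 6.18 CPM with guide 2, and 3.59 and 3.89 CPM in GFPsg. Fibroblast and endothelial markers gave 3 tested of 8, with sums of 2.00 to 2.47 CPM with guide 1, 2.11 to 2.63 CPM with guide 2 and 2.65 to 3.74 CPM in GFPsg. Epithelial markers gave 2 of 6, with sums of 0.423 to 0.524 CPM with guide 1, 0.433 to 0.552 CPM with guide 2 and 1.00 to 1.21 CPM in GFPsg. The part of these genes in the channel changes was not tested.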

How the data were processed

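RNA was sequenced from B16F10 cells in 3 groups of 3 libraries, made with a stranded mRNA kit per the labels' protocols. Values deposited by the authors are unnormalized read counts for each gene. The submitters' processing notes name the mm10 build and bcl2fastq, HISAT2 and HTSeq; versions, annotation and strand setting are not given in the sources used here, so reads of overlapping genes cannot be assigned with certainty. Of the 51 channel genes tested, 19 share exon bases with a gene on the other strand and 2 with one on the same strand. Of 54752 identifiers 54723 matched GENCODE M21, which gave symbols, coordinates and exon lengths.

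Counts were filtered with filterByExpr (minimum count 10, by group), scaled by TMM and tested with edgeR 4.0.16 in R 4.3.3, by its quasi-likelihood test in 1 fit of all 9 libraries, with Benjamini-Hochberg adjustment over 17931 genes and a threshold of 0.05. Standard errors were taken as the log2 change over the square root of F. CPM use TMM-scaled totals, and levels per kilobase divide CPM by the union of exons. The method was tested on simulated counts. Replicate pairs differed by more than sampling noise (chi-square per degree of freedom 7.12 to 22.7). Alternatives used DESeq2 1.42.0, limma 3.58.1 (voom), other scalings and filters, a minimum fold change, a replicate block and the omission of each library.

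Genes named with values were the 10 highest and 10 lowest changes called with both guides at 0.5 CPM or more (9 were found on the lower side), the 8 highest levels per kilobase in GFPsg, the highest of each family, those called between guides, and 3 of each partner list by lowest p. Other genes are named to account for a count or were singled out after their values were seen. The members, families and lists were chosen with earlier results of these data known. Promoter windows come from a RefSeq table on GRCm38.p6. Some genes of the families and partner lists are not reported here by name; counts and sums cover all genes analysed.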

Additional observations from a re-analysis of the deposited data

How the results depend on the processing

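In the knockout contrast 27 to 31 channel genes were called when each library was left out, 33 with the replicate block, 30 with DESeq2 or voom, 31 without the filter, 24 of 33 tested at a minimum of 50 counts, 29 with library size alone and 23 against a minimum of 1.2-fold. Of the 32 called genes 23 kept direction and call under every alternative run, 9 were not called against 1.2-fold, and 6 lost the call elsewhere, among them Kcnq5, Trpc4ap, Kcnj4 and Kcnk13. No called gene changed sign, but 9 of the 19 uncalled genes did, and Kcna5 and Kcnab2 were called under some settings. Leaving out libraries gave 30 to 34 genes for guide 1, 24 to 27 for guide 2, and 46 to 52 partner genes. Between guides it gave 1 to 3, the 1 without Tada2bsg1 replicate 1 or replicate 3; the count was 0 against 1.2-fold, by construction stricter, and 6 with the replicate block. Partner genes came to 31 against 1.2-fold. The block gave 34 for guide 1, 28 for guide 2 and 51 partner genes. Same-numbered libraries deviated together weakly (correlations −0.01 to 0.10, 9 pairs), so the numbers were not taken to pair them, although 9 of 9 libraries correlated best with their own number. Library size alone moved the median of all genes to 0.07 (log2), against −0.02. Fits without 1 group were not run for the knockout contrast, which needs all 3. Intervals cover counting error only, and genes under about 0.134 CPM could not be tested. The main fit called 51.0% of all genes in the knockout contrast. That share is not given here for the other settings, so their counts of channel genes stand without a background.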
